A study of Mus musculus with 8 samples.

Results

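The nuclear genes that encode the mitochondrial respiratory chain and the ATP synthase were examined in the hippocampus of 8 mice. Members were all genes whose symbol marks a subunit of complex I (Nduf, then a, b, c, s or v and a digit), complex II (Sdha to Sdhd), complex III (Uqcr genes and Cyc1), complex IV (Cox4 to Cox8 genes) or complex V (Atp5 genes). Of 12393 genes measured by a probe set annotated to that gene alone, 79 met this rule, 33 for complex I, 4 for complex II, 9 for complex III, 16 for complex IV and 17 for complex V. The RefSeq gene table lists 88 protein-coding genes with such symbols, and the other 9 were not analysed here. The rule used symbols and no measured value. Ndufab1, a complex I subunit without that digit in its symbol, was counted with the assembly factors instead and stood at a log2 difference of 0.046 (FTY720 minus vehicle).

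All mice were male SCID animals of 12 weeks, which lack mature T and B lymphocytes, and all had undergone contextual fear conditioning. One group of 4 received FTY720 in saline by mouth at 1 mg/kg for 3 days, and the other group of 4 received saline alone (vehicle). FTY720, or fingolimod, is a sphingosine analogue whose phosphorylated form binds sphingosine-1-phosphate receptors. Mice were killed 17 hours after their final dose and 1 hour past the memory consolidation test, and hippocampal RNA of each was run on its own Affymetrix 3' array. Replicate numbers are those of the labels, 1, 4, 5 and 6 for FTY720 and 13 to 16 for vehicle.

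Complexes I and II pass electrons from NADH and succinate to ubiquinone, complex III hands them to cytochrome c, and complex IV gives them to oxygen. Complexes I, III and IV move protons out of the mitochondrial matrix, and complex V, the ATP synthase, uses their return to make ATP. Neurons depend on this supply to restore ion gradients after firing and to fuel synaptic transmission. Most subunits are encoded in the nucleus, and the arrays described here measure only those RNAs, not the proteins or the activity of the complexes.

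The members' promoters, which the symbol rule did not use, are shown first because letters of mitochondrial gene regulators recur in some of them. RefSeq promoter windows (GRCm38.p6, 250 bases before and 50 after a start) were matched by Entrez ID for 64 of the 79 members and for 9882 of all genes tested. The letters GCATGCGC, the core of the site of nuclear respiratory factor NRF1, were found on either strand in 9 of 64 members (14.1%), against 5.01% of genes tested. The letters CCGGAAG, typical of ETS factors such as the nuclear respiratory factor GABPA, were found in 17 of 64 members (26.6%), against 16.4%. The letters AAGATGGCG, typical of the factor YY1, were found in 6 of 64 members (9.38%), against 2.82%. At least 1 of these 3 strings was present in 26 of 64 members, so most members' windows held none. The same share was not counted over all genes. TATAAA was found in 10.9% of members and 11.9% of genes, and CCAAT in 40.6% and 42.3%. Over all 32851 windows of that length, the shares were 2.71%, 8.86%, 1.40%, 13.6% and 37.4% in the same order of NRF1, ETS, YY1, TATA and CCAAT letters. Some genes have several windows, and a gene counted if any of them held the letters. The matches describe sequence only, and no difference between these shares was tested.

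The 6 windows below hold such letters and cover every complex, with 3 of the genes whose group values do not overlap (Ndufa8, Ndufs7 and Sdhb). They are written in the direction of the gene, with matches of the 3 letter strings, or of their reverse complements, in capitals. Where both strands of the NRF1 letters overlap, the capitals run together.
Ndufa8 (chr2:36049289-36049588, - strand): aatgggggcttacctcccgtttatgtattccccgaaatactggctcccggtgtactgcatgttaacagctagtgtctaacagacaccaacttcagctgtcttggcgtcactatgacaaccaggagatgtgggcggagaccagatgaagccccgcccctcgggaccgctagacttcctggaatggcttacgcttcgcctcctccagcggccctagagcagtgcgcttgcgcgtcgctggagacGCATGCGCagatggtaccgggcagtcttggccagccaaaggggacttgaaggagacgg
Ndufs7 (chr10:80249199-80249498, + strand): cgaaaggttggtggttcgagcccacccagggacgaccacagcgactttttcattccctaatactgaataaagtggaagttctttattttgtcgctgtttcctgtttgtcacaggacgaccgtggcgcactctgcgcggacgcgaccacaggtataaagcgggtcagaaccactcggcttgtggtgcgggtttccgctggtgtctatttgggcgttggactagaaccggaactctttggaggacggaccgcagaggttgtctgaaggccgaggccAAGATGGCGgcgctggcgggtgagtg
Sdhb (chr4:140961021-140961320, + strand): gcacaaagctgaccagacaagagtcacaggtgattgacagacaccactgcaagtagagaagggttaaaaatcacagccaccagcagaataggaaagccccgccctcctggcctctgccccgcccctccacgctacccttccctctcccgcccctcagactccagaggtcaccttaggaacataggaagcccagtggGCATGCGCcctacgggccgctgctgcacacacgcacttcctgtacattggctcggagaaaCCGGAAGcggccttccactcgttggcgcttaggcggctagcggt
Uqcr11 (chr10:80406772-80407071, - strand): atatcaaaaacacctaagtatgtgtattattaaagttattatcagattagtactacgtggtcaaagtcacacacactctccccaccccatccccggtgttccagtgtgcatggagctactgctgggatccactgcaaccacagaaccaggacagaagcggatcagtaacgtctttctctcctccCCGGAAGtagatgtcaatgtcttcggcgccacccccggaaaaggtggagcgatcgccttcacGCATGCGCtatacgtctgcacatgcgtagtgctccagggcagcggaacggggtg
Cox6a1 (chr5:115348909-115349208, - strand): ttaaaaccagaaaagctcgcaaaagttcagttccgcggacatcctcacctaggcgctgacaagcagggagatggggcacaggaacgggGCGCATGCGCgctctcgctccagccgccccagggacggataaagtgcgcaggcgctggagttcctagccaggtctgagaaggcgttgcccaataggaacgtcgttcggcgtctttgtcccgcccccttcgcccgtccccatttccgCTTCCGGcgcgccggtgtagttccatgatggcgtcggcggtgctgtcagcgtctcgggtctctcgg
Atp5k (chr5:108434350-108434649, - strand): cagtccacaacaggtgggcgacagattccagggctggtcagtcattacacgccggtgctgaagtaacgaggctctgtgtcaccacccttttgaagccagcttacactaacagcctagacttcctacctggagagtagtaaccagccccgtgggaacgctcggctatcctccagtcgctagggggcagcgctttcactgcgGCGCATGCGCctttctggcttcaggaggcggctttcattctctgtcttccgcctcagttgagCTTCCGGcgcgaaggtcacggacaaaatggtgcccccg
In Sdhb the NRF1 letters began 54 bases before the start and the ETS letters at base 7 after it. In Cox6a1 they began 160 bases before on the same strand and 16 bases before on the opposite strand. All 6 YY1 matches of members lay on the strand of the gene, and 5 of them after the start, as in Ndufs7 at base 25. Among all genes tested, 149 of 302 YY1 matches were placed so (49.3%).

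Vehicle mice 15 and 16 stood apart from the other mice, and values without them are given beside the results that they move most. The array of vehicle 15 correlated least with the rest (median 0.994, against 0.996 to 0.998). The Gapdh 5' minus 3' control difference was -1.08, -0.80, -1.05 and -0.85 in the FTY720 mice. In the vehicle mice it was -1.09, -1.18, -1.07 and -1.46, steepest in vehicle 16. Only FTY720 1 and vehicle 15 crossed, so this control differed between the groups and cannot be told apart from treatment. Thalamus and habenula markers (11 of 12 measured) had a mean deviation of 1.16 in vehicle 15, with -0.34 to 0.18 in the other vehicle mice and -0.41 to -0.19 in FTY720 mice. Striatum markers (9 of 12 measured) reached 1.24 in vehicle 15, with -0.30 to 0.32 in the other vehicle mice and -0.32 to -0.18 in FTY720 mice. For oligodendrocyte markers (11 of 14 measured) the FTY720 mice ran from -0.30 to -0.082 and the vehicle mice from -0.063 to 0.38. All 11 were lower with FTY720, with a median difference of -0.33. Of these, 10 had a limma unadjusted p under 0.05 (2.78% of all genes were lower so), and groups did not overlap in 6 (4.49% of all genes). This difference lay between the groups and was not confined to vehicle 15 and 16, as vehicle 14 stood at 0.29. For pan-neuronal markers (10 of 10) the ranges were -0.0065 to 0.026 and -0.065 to 0.045. Of the hippocampal neuron markers 8 of 14 were measured, 4 of them higher and 4 lower with FTY720. Their mean deviations ran from -0.12 to 0.20 in FTY720 mice and from -0.27 to 0.25 in vehicle mice. Single differences ran from -0.27 for Lct to 0.19 for Man1a. Neurod6 stood at 10.52 and 10.45 in the FTY720 and vehicle means and Wfs1 at 9.86 and 9.89. Prox1, the marker of dentate granule cells, stood at 3.38 and 3.19, near the bottom of the array's range. Mean deviations in FTY720 and vehicle mice ran from 0.010 to 0.072 and from -0.13 to 0.061 for interneuron markers (10 of 10 measured), from -0.12 to 0.018 and from -0.25 to 0.49 for neocortex markers (9 of 10), from -0.040 to 0.068 and from -0.090 to 0.057 for astrocyte markers (10 of 10), from -0.066 to 0.048 and from -0.18 to 0.12 for microglia markers (9 of 10), and from -0.15 to 0.064 and from -0.14 to 0.18 for endothelial markers (9 of 10). All lists were scored as the mean deviation of their measured genes from each gene's mean over the 8 mice. The part of these tissue and RNA differences in the members' values was not tested.

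FTY720 and vehicle mice had nearly the same levels of these transcripts. The median log2 difference, FTY720 minus vehicle, was -0.0014 over the 79 members, against 0.0072 over all genes, with 37 members higher and 42 lower (53.2%, against 46.5% of all genes lower). In 59 members (74.7%) the difference was under 0.05 in either direction, against 47% of all genes and 54.3% of genes above the 75th percentile of level. In 5 members (6.33%) it was over 0.1, against 24.3% of all genes. The limma fit over all 12393 genes called 0 members at a Benjamini-Hochberg adjusted p of 0.05, as it called 0 of all genes, and the lowest adjusted p of a member was 0.743. At an unadjusted p under 0.05 it called 1 member, Ndufb10, or 1.27%, where the background was 823 of all genes or 6.64% (3.86% higher and 2.78% lower). Groups did not overlap in 4 members (5.06%), of which 3 were higher and 1 lower. The background was 4.49% of all genes (2.72% higher and 1.78% lower) and 6.07% of genes above the 75th percentile of level. With 1 mouse left out the count of such members lay between 5 and 10, and the share of all genes between 6.70% and 8.80%. In tissue RNA, fewer cells of a type and less RNA per cell cannot be told apart.

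The size of difference that these 8 arrays leave room for was small for most members. The 95% interval of the limma fit lay wholly within a 1.25-fold change in 75 of 79 members (94.9%), against 83.3% of all genes. The exceptions were Ndufb6, Cox7a1, Cox6b2 and Cox8b. All members of complexes II, III and V were within that limit, by the chosen probe set of each gene. Dimmer probe sets of Atp5a1 (-0.24, interval half-width 0.22) and Atp5o (-0.18, half-width 0.20) had intervals that reached past it, at 0.32 on the log2 scale. The intervals do not include disagreement between probe sets of a gene. Over all genes above the 75th percentile of mean level (3098 genes), a class that holds 71 of the 79 members, the share was 89.0%. A p that misses a threshold does not show that a gene was the same in both groups, and the intervals give the range instead.

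**Figure D1:**
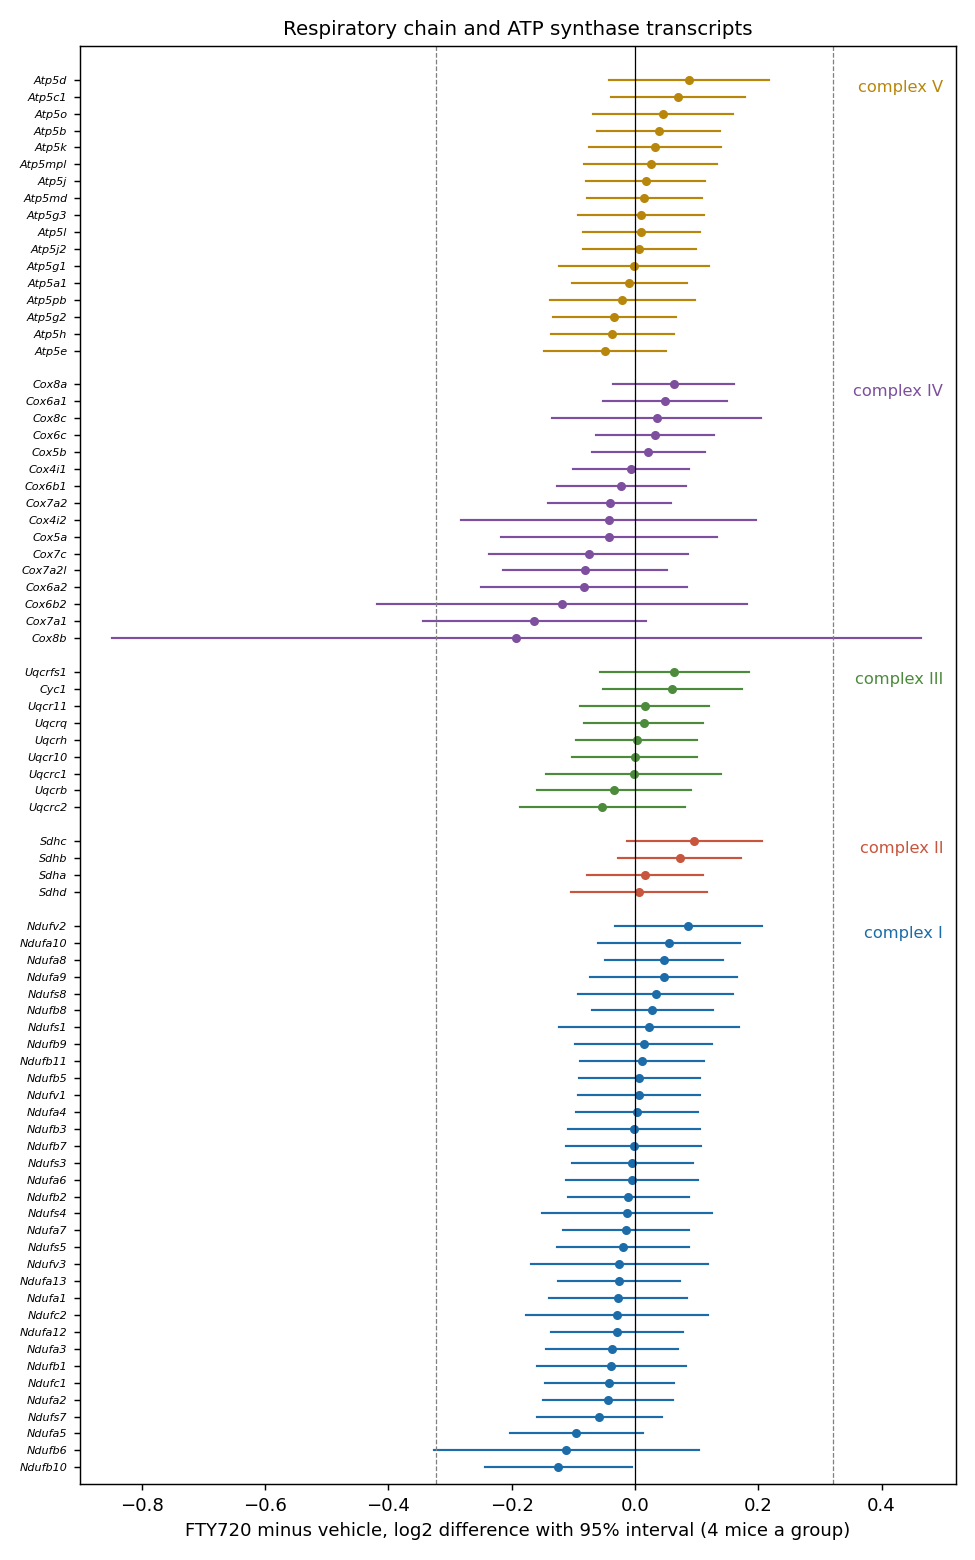
The horizontal axis is the log2 difference, FTY720 minus vehicle, with its 95% interval, for each of the 79 genes, ordered by difference within complexes I to V, and the dashed lines mark a 1.25-fold change either way. Most points lie within 0.1 of 0, and Cox8b has the widest interval, from -0.85 to 0.46.

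Complex I had a median difference of -0.010, with 12 members higher and 21 lower. The median ran from -0.028 to 0.0013 with 1 mouse left out, and it was positive when only probe sets of plain suffix were used. The nuclear-encoded core subunits of complex I, most of which carry the flavin or iron-sulfur clusters, were represented by 6 genes with a median of 0.015. The 27 accessory genes had a median of -0.015. Ndufb10, an accessory subunit of the membrane arm, stood at 9.997, 10.035, 10.093 and 9.941 in the FTY720 mice and at 10.081, 10.139, 10.226 and 10.118 in the vehicle mice. The groups met only where FTY720 5 exceeded vehicle 13. Its difference was -0.12 (SE 0.053, limma unadjusted p = 0.0424, adjusted p = 0.743). It lost the unadjusted call without FTY720 1, 4 or 6 or without vehicle 14, 15 or 16, where the difference lay between -0.15 and -0.096 over all single omissions.

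Ndufa5, an accessory subunit of the matrix arm, was 10.70, 10.78, 10.75 and 10.68 in FTY720 mice and 10.77, 10.85, 10.80 and 10.88 in vehicle mice. Only FTY720 4 lay above the lowest vehicle mouse, and the difference was -0.095 (SE 0.048, adjusted p = 0.768). Ndufs7, the core subunit that holds the last iron-sulfur cluster before ubiquinone, was 11.043, 11.056, 11.067 and 10.965 with FTY720 and 11.089, 11.068, 11.131 and 11.076 with vehicle. Every FTY720 mouse was below every vehicle mouse, although FTY720 5 and vehicle 14 were nearly level, and the difference was -0.058 (SE 0.045, adjusted p = 0.851). The other probe set of Ndufs7 gave 0.058, the opposite sign. Ndufa8, an accessory subunit with disulfide bonds, was 10.854, 10.923, 10.864 and 10.844 with FTY720 and 10.822, 10.839, 10.808 and 10.826 with vehicle. Every FTY720 mouse was above every vehicle mouse, with a difference of 0.047 (SE 0.043, adjusted p = 0.878). Ndufv2, a core iron-sulfur subunit, differed by 0.087 (SE 0.053). Its difference was 0.12 without vehicle 15, where its unadjusted p was under 0.05, and 0.054 without vehicle 16. The other 2 probe sets of Ndufv2 stood at 0.0057 and 0.012. Group means of complex I signals ran from 7.52 for Ndufb1 in FTY720 mice to 12.47 for Ndufa13 in vehicle mice, with Ndufs4 the next lowest (mean over 8 mice 9.31) and Ndufa1 the next highest (12.43). Such levels differ between probe sets for reasons besides RNA amount, so the orders of level given here are of signals and not of RNA amounts.

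All 4 genes of complex II, succinate dehydrogenase, had differences above 0, with a median of 0.044, where 53.5% of all genes were above 0. Sdhb, the iron-sulfur subunit, was 11.406, 11.458, 11.439 and 11.402 in FTY720 mice and 11.368, 11.401, 11.343 and 11.303 in vehicle mice. The groups did not overlap, although FTY720 6 and vehicle 14 were nearly level, and the difference was 0.072 (SE 0.044, adjusted p = 0.811), or 1.05-fold, and 0.042 without vehicle 15 and 16. Sdhc, a membrane anchor that helps bind ubiquinone, was 8.949, 8.836, 8.905 and 8.836 with FTY720 and 8.832, 8.743, 8.811 and 8.755 with vehicle. These groups did not overlap either, and the difference was 0.097 (SE 0.049, adjusted p = 0.766). Sdha, the flavoprotein that oxidises succinate, was 11.04 ± 0.021 (SD, n = 4) with FTY720 and 11.02 ± 0.025 (SD, n = 4) with vehicle, and Sdhd, the other anchor, was 10.49 ± 0.045 and 10.48 ± 0.056. Their differences were 0.016 (SE 0.042) and 0.0069 (SE 0.049), and the groups overlapped in each. Sdha stood at -0.071 by its other probe set, and Sdhd at -0.00027 when arrays were centred on brighter genes, so the shared sign of the 4 genes depends on these choices.

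Complex III had a median difference of 0.0033, with 5 genes higher and 4 lower. Its catalytic subunits Cyc1 and Uqcrfs1 had a median of 0.062. Cyc1, the heme protein that passes electrons to cytochrome c, was 11.42, 11.52, 11.51 and 11.52 with FTY720 and 11.48, 11.49, 11.40 and 11.36 with vehicle. FTY720 1 alone lay inside the vehicle range, and the difference was 0.061 (SE 0.050, adjusted p = 0.863). It was 0.037 without vehicle 16 and 0.0091 without vehicle 15 and 16. Uqcrfs1, the Rieske iron-sulfur protein, was 10.75, 10.89, 10.93 and 10.87 with FTY720 and 10.78, 10.84, 10.82 and 10.74 with vehicle, a difference of 0.063 (SE 0.054, adjusted p = 0.868). It was 0.10 without FTY720 1 and 0.039 without FTY720 5. The structural core proteins Uqcrc1 and Uqcrc2 stood at -0.0021 and -0.053. Signals in this complex ran from 10.73 for Uqcrq to 12.91 for Uqcrb, as means over 8 mice.

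In complex IV, cytochrome c oxidase, 11 genes were lower and 5 higher, with a median of -0.042. That median was -0.010 without vehicle 15, -0.0092 without vehicle 16, and 0.0064 without both. It was -0.0063 over the 11 members above the median level of all genes. Of the 11 lower genes, 5 were forms known from other tissues. Of 6 such forms measured, 5 were lower and 1 higher, with a median of -0.10, whereas their 5 widely expressed counterparts had 2 higher and 3 lower, with a median of -0.0063. The restricted forms had mean levels of 5.00 to 7.91, and the median of all genes was 7.17.

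Cox7a1, the heart and muscle form, was 5.11, 5.04, 5.02 and 4.96 in FTY720 mice and 5.19, 5.43, 5.10 and 5.07 in vehicle mice. Only FTY720 1 overlapped the vehicle range, and the difference was -0.16 (SE 0.080, adjusted p = 0.766). Without vehicle 14, the highest mouse, it was -0.085. It was -0.20 without vehicle 15, -0.21 without vehicle 16 and -0.28 without both, each with a limma unadjusted p under 0.05. Its ubiquitous counterpart Cox7a2 differed by -0.041 (SE 0.045). Cox6a2, another muscle form, differed by -0.083 (SE 0.074; -0.025 without vehicle 15 and 16), and Cox6a1, its counterpart, by 0.049 (SE 0.045). Cox4i2, known from lung, differed by -0.042 (SE 0.11), and Cox4i1 by -0.0063 (SE 0.042). The testis form Cox8c differed by 0.035 (SE 0.076), and Cox8a, the widely expressed form, was 12.38, 12.42, 12.41 and 12.45 with FTY720 and 12.37, 12.39, 12.31 and 12.34 with vehicle. FTY720 1 alone lay within the vehicle range of Cox8a, whose difference was 0.063 (SE 0.044, adjusted p = 0.832), with the same sign at its 3 probe sets, and was 0.033 without vehicle 15 and 16. Ndufa4, named for complex I but known to act with complex IV, differed by 0.0035 (SE 0.044). Cox6a1 had the highest mean signal of complex IV, 13.88, followed by Cox5b at 13.46. In Cox5b the 4 vehicle mice stood at 13.45 ± 0.0038 (SD, n = 4).

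Cox8b, a form of heart and muscle, had the largest spread of any member. Its values were 6.77, 5.83, 6.45 and 5.60 in FTY720 mice and 6.02, 6.74, 6.81 and 5.84 in vehicle mice. The difference was -0.19 (SE 0.29, adjusted p = 0.923), or -0.39 to -0.0049 with 1 mouse left out. The groups overlapped almost wholly. The mean deviation of 9 measured choroid plexus markers (of 12 listed) was 0.86, -1.10, 0.58 and -1.20 in the FTY720 mice and -0.34, 0.75, 1.33 and -0.88 in the vehicle mice. FTY720 1, FTY720 5, vehicle 14 and vehicle 15 were thus the high mice in both series and the other 4 the low ones. The defining marker Ttr stood at 13.16 ± 1.33 (SD) and 13.85 ± 0.71 (n = 4 each), so choroid plexus RNA was present in both groups. Since the mice fall into separate clusters no correlation was computed, the pattern was seen after the values were examined, and the part of choroid plexus tissue in Cox8b was not tested. Cox6b2, the testis form, was 5.69, 5.35, 5.33 and 5.46 with FTY720 and 5.32, 5.73, 5.89 and 5.36 with vehicle, a difference of -0.12 (SE 0.13). With 1 mouse left out it ran from -0.20 to -0.013, the latter without vehicle 15, the highest mouse.

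**Figure D2:**
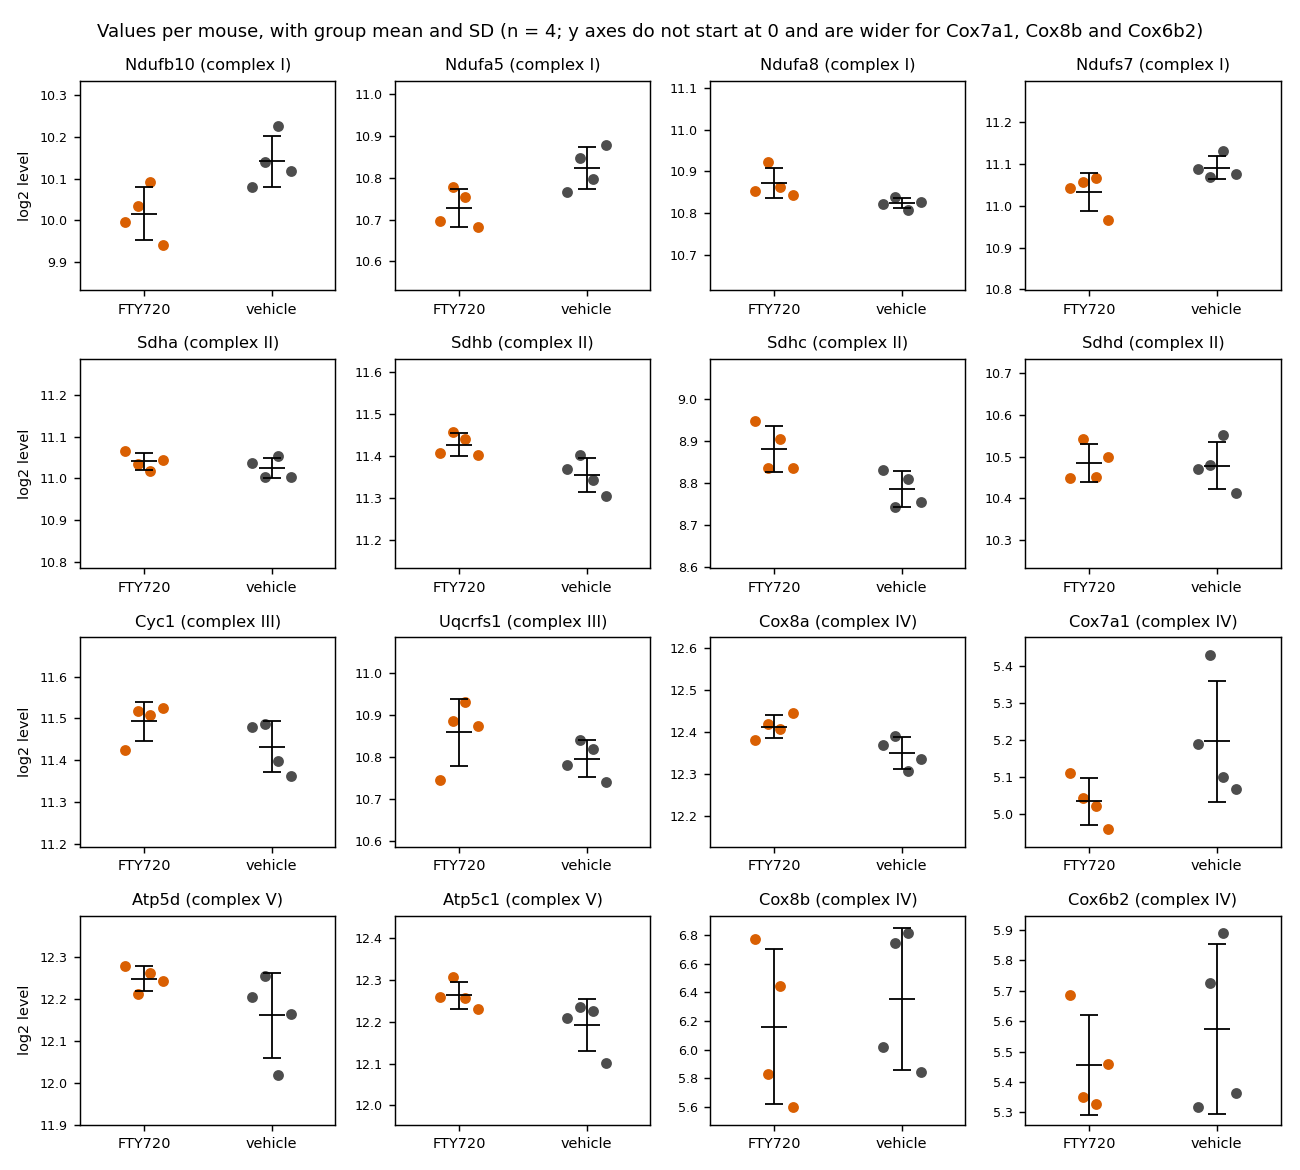
Each panel shows 1 gene, with log2 levels of the 4 FTY720 mice (orange) and the 4 vehicle mice (grey) on the vertical axis, and the group mean with its SD in black. Ndufa8, Ndufs7, Sdhb and Sdhc are the genes without overlap, and the Cox8b panel spans more than 1 log2 unit.

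The ATP synthase had a median difference of 0.010, with 11 genes higher and 6 lower. The catalytic head and central stalk (5 genes) had a median of 0.039, the peripheral stalk (4 genes) of -0.0015, the c ring (3 genes) of -0.0012 and the other membrane subunits (5 genes) of 0.015. Atp5d, the delta subunit of the central stalk, was 12.28, 12.21, 12.26 and 12.24 with FTY720 and 12.20, 12.26, 12.02 and 12.17 with vehicle. Vehicle 15 was the lowest and vehicle 14 lay among the FTY720 mice. The difference of 0.088 (SE 0.058, adjusted p = 0.818) was 0.041 without vehicle 15 and 0.019 without vehicle 15 and 16. The other, dimmer probe set of Atp5d stood at 0.011. Atp5c1, the rotating gamma subunit, was 12.26, 12.31, 12.26 and 12.23 with FTY720 and 12.21, 12.24, 12.23 and 12.10 with vehicle, a difference of 0.070 (SE 0.049, adjusted p = 0.831). It was 0.040 without vehicle 16, the lowest mouse, and its other, dimmer probe set gave -0.065. The catalytic subunit Atp5b differed by 0.039 (SE 0.045) and its partner Atp5a1 by -0.0090 (SE 0.042). The 3 genes of the c ring, Atp5g1, Atp5g2 and Atp5g3, encode nearly the same mature protein, and they stood at -0.0012, -0.033 and 0.010. Mean signals of complex V ran from 9.89 for Atp5g2 and 10.94 for Atp5g1 to 12.64 for the peripheral stalk gene Atp5pb and 12.96 for Atp5g3.

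The members varied little from mouse to mouse. Their median SD within groups was 0.047, against 0.099 over all genes and 0.075 over genes above the 75th percentile of level. In 55 of 79 members the highest and lowest of the 8 mice lay within 0.2 on the log2 scale, and in 2 they lay more than 0.5 apart. The vehicle SD exceeded the FTY720 SD in 57 members (72.2%), against 63.0% of all genes. Without vehicle 15 this held for 42 members (53.2%, against 50.8%), and without vehicle 15 and 16 for 32 (40.5%, against 36.5%). These omissions leave fewer vehicle than FTY720 mice, which changes the shares by itself, so they do not show which group varied more.

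**Figure D3:**
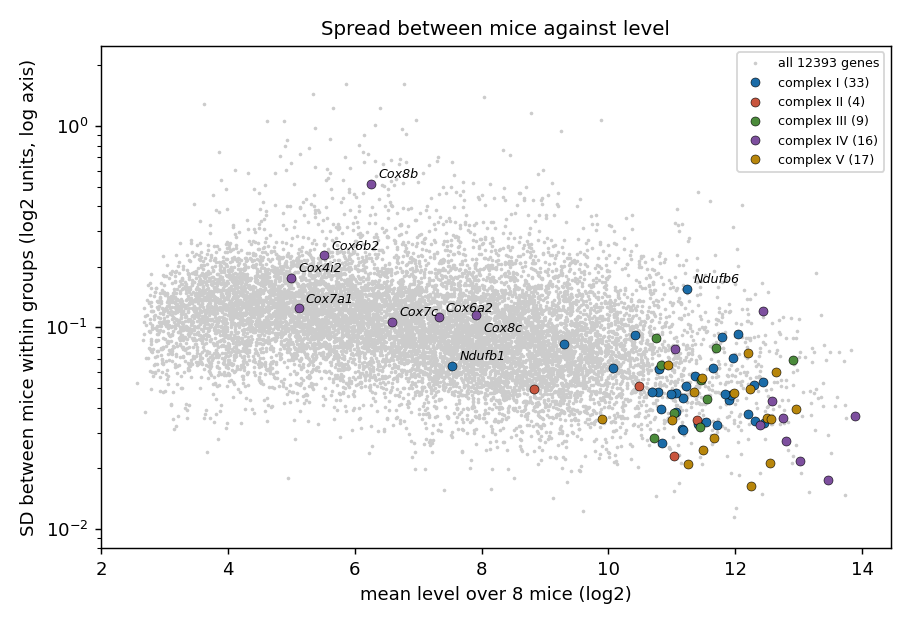
The horizontal axis is the mean log2 level over 8 mice and the vertical axis, on a log scale, the SD between mice within groups; grey dots are all 12393 genes and coloured dots the members by complex. Most members lie at levels above 10 with an SD under 0.1, and Cox8b has an SD above 0.5.

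The extreme values of the members were not spread evenly over the mice. Vehicle 15 was the highest of the 8 mice in 32 of 79 members (40.5%), against 17.1% of all genes and 23.7% of genes above the 75th percentile of level. Of these 32, 17 were complex I genes and 1 a complex II gene. Vehicle 15 was the lowest mouse in 13 members (16.5%), among them Atp5d and Uqcrc1, against 23.6% of all genes and 26.7% of genes above that percentile. The median deviation of complex I genes from their 8-mouse mean was 0.055 in vehicle 15, while in the other 7 mice it lay between -0.025 and 0.023. Vehicle 16 was the lowest mouse in 20 members (25.3%, against 16.9% of all genes and 23.8% of genes above that percentile), 3 of them complex II genes, with a median deviation of -0.073 for that complex. Vehicle 13 was the highest mouse in 0 members, against 7.51% of all genes and 6.97% of genes above that percentile.

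**Figure D4:**
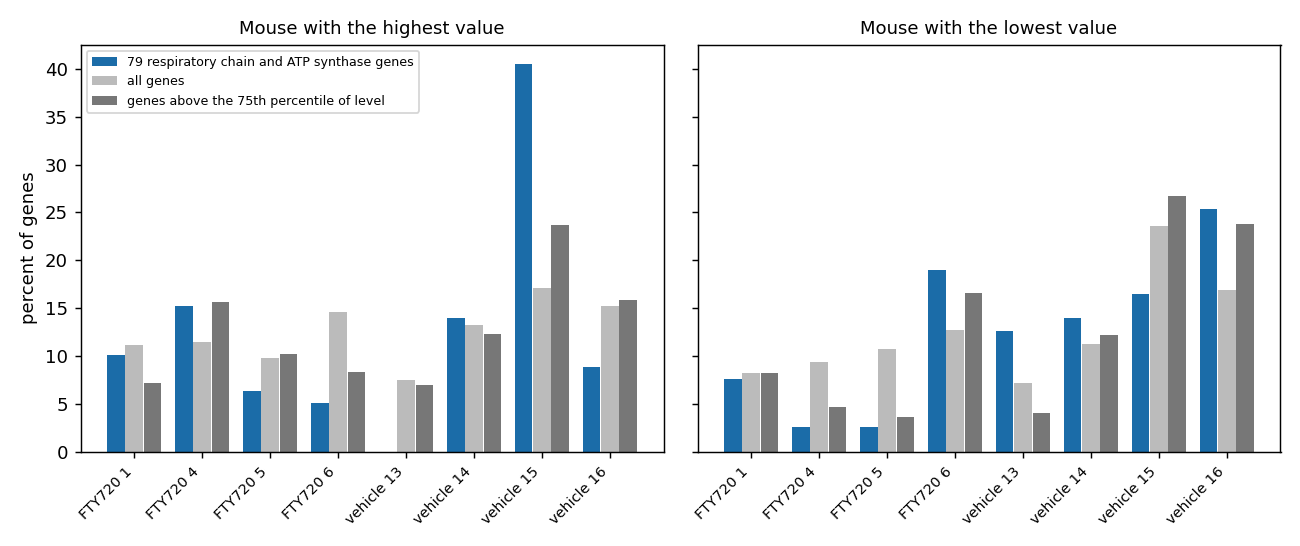
Bars give the percent of genes in which each mouse, on the horizontal axis, had the highest (left) or lowest (right) of the 8 values, for the 79 members, for all genes and for genes above the 75th percentile of level. Vehicle 15 has the tallest bar on the left, 40.5% of members.

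Probe sets of the same gene often gave differences of opposite sign. Of 43 members with more than 1 probe set, 17 had the same sign at every probe set and 26 had both signs. When each of the 148 member probe sets was tested on its own, 3 had an unadjusted p under 0.05 (a background of 6.75% over 20380 probe sets), and groups did not overlap in 9 (against 4.39%). Ndufb6, an accessory subunit of the membrane arm of complex I, had probe sets with differences of opposite sign, of which 1 had an unadjusted p under 0.05. Its brighter probe set was 11.17, 11.13, 11.16 and 11.24 in FTY720 mice and 11.13, 11.08, 11.52 and 11.41 in vehicle mice, where vehicle 15 and 16 stood far above the rest, and the difference was -0.11 (SE 0.096). Its other probe set was 10.74, 10.78, 10.84 and 10.78 in FTY720 mice and 10.69, 10.68, 10.67 and 10.53 in vehicle mice. Here every FTY720 mouse was above every vehicle mouse and vehicle 16 was the lowest, with a difference of 0.14 (SE 0.055, limma unadjusted p = 0.0264, adjusted p = 0.694).

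The 2 probe sets of Uqcrc2, a core protein of complex III, differed in the same way. The brighter stood at -0.053 (SE 0.060), with vehicle 15 and 16 the highest mice at 11.81 and 11.78. The other stood at 0.070 (SE 0.046), with vehicle 16 the lowest mouse at 11.43 and no overlap between the groups. In Cox5a, a complex IV subunit, vehicle 15 and 16 were the highest mice by the brightest probe set, at 12.61 and 12.57, and vehicle 14 the lowest, at 12.27. Its second probe set had the same order at these mice, with vehicle 15 at 11.95, vehicle 16 at 11.89 and vehicle 14 at 11.50. By the third the 8 mice lay between 11.89 and 12.00. A dim probe set of Atp5a1, at 7.21, stood at -0.24 (SE 0.097, unadjusted p = 0.0320), with vehicle 16 at 7.64 and the other mice between 7.02 and 7.30. The brighter probe sets of Atp5a1 stood at 0.041 and -0.0090. Without vehicle 15 and 16 the differences of the chosen probe sets of Ndufb6, Uqcrc2 and Cox5a were 0.070, 0.026 and 0.085, each with its sign turned.

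**Figure D5:**
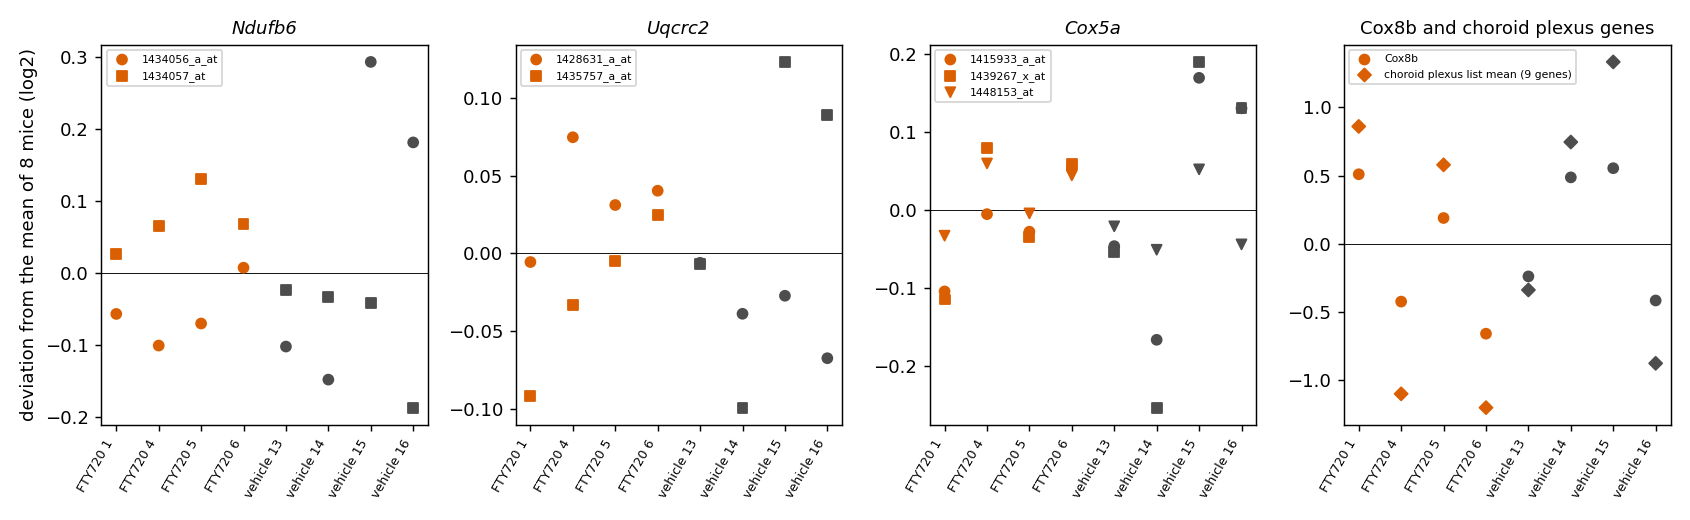
The vertical axis is the deviation from the mean of the 8 mice in log2 units, with mice along the horizontal axis (FTY720 orange, vehicle grey); marker shapes are the probe sets of Ndufb6, Uqcrc2 and Cox5a, and in the last panel Cox8b and the mean of 9 choroid plexus genes. In Ndufb6 vehicle 15 and 16 are high by circles and at or below 0 by squares, and in the last panel the same 4 mice are above 0 in both series.

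Other genes of oxidative phosphorylation gave 0 calls at an adjusted p of 0.05 as well. Among 38 measured assembly factors of the complexes, 25 were higher and 13 lower, with a median of 0.044, and 1 was lower at an unadjusted p under 0.05. This was Pet100, an assembly factor of complex IV, at 9.21, 9.16, 9.20 and 9.18 with FTY720 and 9.27, 9.35, 9.26 and 9.30 with vehicle. Its groups did not overlap, and the difference was -0.10 (SE 0.044, limma adjusted p = 0.743). With the mean of its 2 probe sets the difference was -0.0061 and the unadjusted p 0.915. Electron carriers and entry enzymes (15 genes) had 12 higher and 3 lower and a median of 0.057, with Dhodh, a pyrimidine synthesis enzyme that reduces ubiquinone, at 0.12 (SE 0.056). Of all genes 53.5% were higher. The mean deviation of the electron carrier list was lowest in vehicle 16 (-0.076) and vehicle 15 (-0.039), with the other mice between -0.0072 and 0.058. For the assembly factors it was lowest in vehicle 16 (-0.055) and highest in vehicle 15 (0.031). Genes of adenine nucleotide, phosphate and energy transfer (10 genes) had a median of 0.047, with the mitochondrial creatine kinase gene Ckmt1 at 0.095 (SE 0.051) and no overlap between its groups.

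Regulators of mitochondrial biogenesis (15 genes) had 5 higher and 10 lower, with a median of -0.016. Tfb2m, a factor for transcription of mitochondrial DNA, stood at 0.093 (SE 0.045), without overlap. Genes of inner membrane shape and mitochondrial dynamics (14 genes) had 3 higher and 11 lower and a median of -0.020. Opa1, the inner membrane fusion GTPase, was higher at an unadjusted p under 0.05, with 5.45, 5.80, 5.72 and 5.60 in FTY720 mice and 5.51, 5.42, 5.38 and 5.14 in vehicle mice. FTY720 1 alone lay below the highest vehicle mouse, the difference was 0.28 (SE 0.096, adjusted p = 0.719), and the signal was under the median of all genes. It was 0.15 with the mean of its 2 probe sets and 0.18 without vehicle 15 and 16. Mitochondrial antioxidant enzymes (7 genes) had a median of 0.046, with the glutaredoxin gene Glrx2 at 0.085 (SE 0.045). Across these lists 2 of 99 genes passed an unadjusted p of 0.05, against the background of 6.64%.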

How the data were processed

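RNA of 8 hippocampi, 1 array per mouse, was measured at 22690 probe sets. The deposited values are log2 expression values that the authors had summarised and normalized. Per the submitters' processing notes Expression Console, MAS5 and RMA were used, with no role given for each, and scan batches are not given in the sources used here. The array medians lay between 6.68 and 6.72, and no further scaling was done. Controls and the 691 probe sets annotated to several genes were left out, and a gene took its probe set of highest mean. The groups were compared over all 8 arrays by lmFit and eBayes without covariates (limma 3.58.1, R 4.3.3), and p-values were adjusted over 12393 genes by Benjamini-Hochberg. The number of arrays limits the precision. The fit was tested on simulated data. Genes named were those with non-overlapping groups or an unadjusted p under 0.05, the 2 of smallest p and the 2 of highest and of lowest level in each complex, complex II whole, paired tissue forms, and the gene of smallest p in each related list. Ndufv2, Ndufb6, Cox5a and the other probe sets of a gene were described after their values were seen. The members and lists were chosen with earlier results of these data known. Other normalizations, probe set rules, filters and omissions of mice were tried.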

Additional observations from a re-analysis of the deposited data

Results flagged for a closer look

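Of 76 sets of 4 mice examined (gene values and complex medians in each group), 3 held a mouse far from the other 3 by Dixon's criterion, where chance flags about 1 in 20. Cox6a1, a complex IV subunit, stood at 13.81 in vehicle 15, while the other vehicle mice all stood at 13.87. Cyc1, the heme subunit of complex III, stood at 11.42 in FTY720 1, while the other FTY720 mice lay between 11.51 and 11.52. The median deviation of the complex III genes was 0.017 in vehicle 14, while in the other vehicle mice it lay between -0.0097 and -0.0073.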

How the results depend on the processing

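In each of the 19 settings run, 0 genes passed an adjusted p of 0.05 in limma. Named genes kept their direction in 517 of 538 pairs of gene and setting, and 21 turned. With the mean of all probe sets, Ndufb6 stood at 0.016, Sdha at -0.028 and Uqcrc2 at 0.0085. With probe sets of plain suffix alone, which left 60 members, Atp5c1 stood at -0.065, Cox5a at 0.033, Ndufb6 at 0.14, Ndufs7 at 0.058 and Sdha at -0.071, and the medians of complexes I to IV were 0.033, 0.0069, 0.016 and -0.012. Centred on genes above the median level, Sdhd stood at -0.00027. With 1 mouse left out, Cox4i2 ran from -0.11 to 0.056 (above 0 without FTY720 4), Cox5a from -0.11 to 0.0065 (above 0 without vehicle 15), Cox8c from -0.027 to 0.072 (below 0 without FTY720 6) and Sdhd from -0.015 to 0.031 (below 0 without FTY720 4 or vehicle 16). Without vehicle 15 and 16, Cox4i2 stood at 0.016, Cox5a at 0.085, Ndufb6 at 0.070 and Uqcrc2 at 0.026. With the Gapdh 5' to 3' difference in the model, Cox4i2 stood at 0.076, Cox8c at -0.010 and Sdhd at -0.065. In the same model Ndufv2 stood at 0.012, Cyc1 at 0.0049, Uqcrfs1 at 0.014 and Atp5c1 at 0.012, each smaller than in the main fit. Sdhb (0.043) and Cox8a (0.047) were also smaller, while Sdhc (0.11) and Atp5d (0.13) were larger. Ndufb10 stood at -0.13 and Cox7a1 at -0.18. The cause was not tested. The complex IV median was -0.017 with quantile normalization, -0.0063 over genes above the median level, -0.013 with array weights, 0.0064 without vehicle 15 and 16 and -0.012 with the Gapdh covariate, where complexes I, II, III and V stood at -0.033, 0.022, 0.014 and -0.0058. Members at an unadjusted p under 0.05 numbered 2 with an eBayes trend (Ndufa5 and Ndufb10), 0 with the Gapdh covariate, 3 as single probe sets, and 0 to 2 with 1 mouse left out (2 without vehicle 15: Cox7a1 and Ndufv2). Non-overlapping members numbered 14 of 79 without vehicle 15 and 16 (background 14.48%) and 5 to 10 of 79 with 1 mouse left out (background 6.70% to 8.80%). As single probe sets they numbered 9 of 148 (background 4.39%). With 1 mouse left out, medians ran from -0.028 to 0.0013 in complex I, 0.032 to 0.050 in complex II, -0.0031 to 0.023 in complex III, -0.054 to -0.0092 in complex IV, 0.0085 to 0.020 in complex V and -0.0090 to 0.0064 over all members. The vehicle SD was the larger in 42 members without vehicle 15 and in 32 without vehicle 15 and 16, an alternative added after the values were seen. Both counts compare fewer vehicle than FTY720 mice and do not show which group varied more. No paired analysis was possible because the groups share no replicate number. Small signals near the array's lower range limit what dim subunit forms can show.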
